A study of Mus musculus with 12 samples.

Results

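Ly6c2-positive classical monocytes of the mouse spleen were taken from the cells that the authors annotated Mac. A Mac cell was a member when its deposited Ly6c2 value, converted back from the natural logarithm, was 2 or more. By this rule 420 of 22285 cells were members, out of 2579 Mac cells, and the remaining 2159 Mac cells are called Ly6c2-low here. The WT mice gave 134 and 45 members and the SLE.yaa mice 75 and 166. The members were selected on Ly6c2 and on an annotation made from the expression of these same cells, so neither the Ly6c2 level nor a marker level against other Mac cells is a finding. Condition had no part in the rule, and the comparisons are between mice. Where 4 values follow each other they belong to WT 1 and WT 2, then to SLE.yaa 1 and SLE.yaa 2; where pairs are compared, the WT pair comes first.

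Spleen cells of 4 male mice were enriched by magnetic beads for CD45, which all white blood cells carry, and profiled by droplet single-cell RNA sequencing. The 2 WT mice were of strain C57BL/6 and the 2 SLE.yaa mice of strain B6.Sle1yaa, and no treatment of either is given. B6.Sle1yaa mice are a model of systemic lupus that carries the Sle1 interval of chromosome 1 and Yaa, a piece of the X chromosome moved onto the Y chromosome, in all cells of the animal. The deposited age, which carries no unit, was 14.4 for the WT pair and 14.9 for the SLE.yaa pair, so age and group cannot be told apart. The group label is headed as a chimera condition, but the sources used here do not state that bone marrow was transferred.

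Classical monocytes are made in the bone marrow, carry Ly6C and the chemokine receptor CCR2 on their surface, and enter the blood and the spleen, which holds a reserve of them. In inflamed tissue they become macrophages or cells that present antigen. In the steady state they also turn into patrolling monocytes, which lose Ly6C and CCR2, need the nuclear receptor Nr4a1 and survey the vessel wall. Yaa brings an extra copy of Tlr7, an endosomal receptor for single-stranded RNA, and Sle1 holds the genes of several Fc and SLAM family receptors.

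Members were read more deeply than the other Mac cells. Their median was 6602, 6881, 7019 and 7216 UMIs per cell, against 2992 to 3526 in Ly6c2-low cells and 3467 to 4695 over all cells of a mouse. The 4 members' medians did not overlap between the groups, and an exact permutation test gave p = 0.333, the smallest that 2 against 2 mice allow. No deposited cell held more than 2999 genes, and 14.9%, 13.3%, 21.3% and 16.3% of members had 2800 genes or more. Both cell cycle scores of the authors were below 0 in every member. A heavy chain was read in 1, 1, 2 and 0 members, and a pair of alpha and beta chains in 1, 0, 0 and 1. Of 254 barcodes found in more than 1 library, 10 belonged to members, and none was shared between 2 members.

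The label was checked against 11 classical monocyte genes, Ly6c2 left out because the rule used it. At least 4 of the 11 had a value in 385 members, and Ccr2 or F13a1, the gene for a coagulation factor subunit made by monocytes, had one in 368. Ccr2 was present in 88.1%, 91.1%, 82.7% and 74.7% of members, against 0.0290% to 0.115% of B cells, whose median depth was 3187 to 4733 UMIs. F13a1 was present in 72.4%, 86.7%, 73.3% and 59.0%, against 0.0290% to 0.259% of B cells. Of 12 patrolling monocyte genes, the median member had a value for 5 in each mouse, against 8, 8, 8 and 7 of the 11 classical genes. Markers of cells other than monocytes were rarer. At least 3 of 15 splenic macrophage genes had a value in 32 members, at least 3 of 12 dendritic cell genes in 15, and at least 3 of 10 T cell genes in 4, although 3 of those T cell genes were not in the table. The neutrophil and plasma cell lists stood out by mouse. At least 3 neutrophil genes had a value in 2, 0, 2 and 29 members, and at least 3 plasma cell genes in 3, 0, 16 and 18.

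The members were not uniform, and the genes around them graded with Ly6c2. Cells with a Ly6c2 value of 2, just inside the rule, numbered 18, 4, 9 and 29, and cells with a value of 1, just outside, numbered 35, 18, 24 and 68. Mean F13a1 per cell over all mice was 0.531 at a Ly6c2 value of 1, 1.54 at 2 to 4, 2.87 at 5 to 9 and 4.68 at 10 or more. Fn1, the gene of fibronectin, went from 1.14 to 3.57, 6.95 and 8.18 in the same classes. Ace and Cd300e, which mark patrolling monocytes, went the other way: Ace had means of 3.77, 2.36, 1.33 and 0.791, and Cd300e of 0.579, 0.132, 0.0333 and 0.00676. Ace was thus still read in members of every class, and both patrolling genes most in the members with the lowest Ly6c2. These gradients follow from the choice of cells and are given as a description. Ly6c2 itself had a median of 6, 5, 7 and 7 per member.

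**Figure D1:**
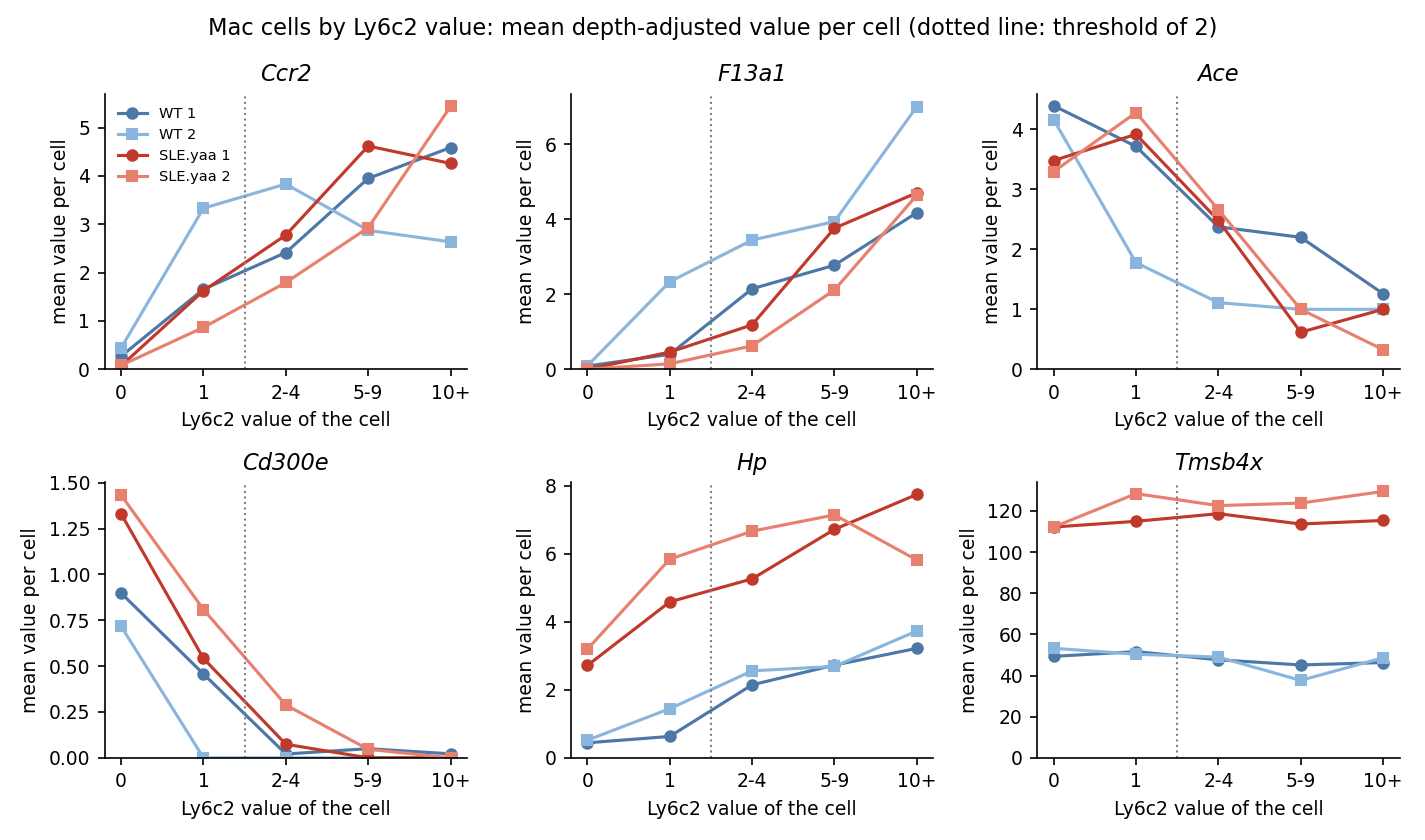
Mean depth-adjusted value per cell (vertical axis) of 6 genes in Mac cells grouped by their Ly6c2 value (horizontal axis), 1 line per mouse, with the threshold of 2 dotted. F13a1 is highest in the top class in every mouse, Ccr2 is not in WT 2 (3.83 at 2 to 4 and 2.64 at 10 or more), and Ace is higher at a value of 1 than at 0 in both SLE.yaa mice. In the 5 classes plotted, Tmsb4x lies between 112 and 129 in the SLE.yaa mice and between 37.6 and 53.2 in the WT mice.

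Members made up 2.44% and 0.790% of all cells of the WT mice and 1.51% and 2.71% of those of the SLE.yaa mice. The WT values spanned the lower SLE.yaa value, and edgeR's quasi-likelihood test on cell counts gave a log2 change of 0.39 with a Benjamini-Hochberg adjusted p = 0.526. Ly6c2-low Mac cells rose at the same time, from 4.38% and 2.18% to 9.57% and 21.5% (log2 change 2.25, edgeR adjusted p = 0.00761). Among Mac cells the share of members was accordingly lower in SLE.yaa, at 35.7% and 26.6% in the WT mice and 13.6% and 11.2% in the SLE.yaa mice. The group means were 31.2% ± 6.44 (SD, n = 2) and 12.4% ± 1.74 (SD, n = 2), a difference of -18.8 percentage points with an exact permutation p = 0.333, the smallest possible here. Among Mac cells of 2000 to 8000 UMIs the shares were 31.3%, 22.8%, 12.3% and 8.98%, with the groups in the same order. The median depths of members and of Ly6c2-low cells both lie inside this window, so depth still varied within it. The part of depth in the share was not tested. Leaving out WT 2 turned the change of the members' share of all cells to -0.20, and leaving out SLE.yaa 2 turned it to -0.09.

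**Figure D2:**
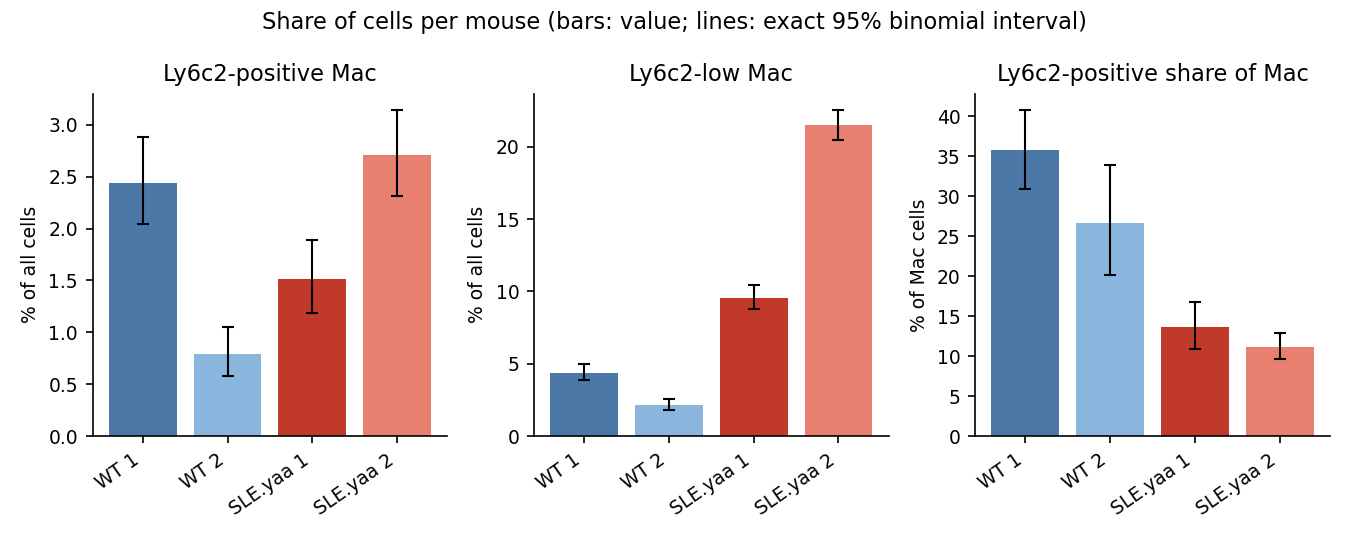
Share of cells in each mouse (bars) with exact 95% binomial intervals that cover counting error only (lines): Ly6c2-positive Mac cells and Ly6c2-low Mac cells as a percent of all cells, and Ly6c2-positive cells as a percent of Mac cells. The Ly6c2-positive share of all cells overlaps between the groups, while the Ly6c2-low share is 9.57% and 21.5% in SLE.yaa against 4.38% and 2.18% in WT.

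Which genes differed between SLE.yaa and WT members was asked with 1 value per mouse and gene. Values are means of the depth-adjusted numbers over the members of a mouse, scaled to sum to 1000000 per mouse and called levels. Of 8253 genes tested, 13 rose (0.158%) and 2 fell (0.0242%) in SLE.yaa by limma on log2(value + 10) with a Benjamini-Hochberg adjusted p below 0.05, and the median over all tested genes was 0.03 on the log2 scale. The 13 were antimicrobial and acute phase genes (S100a8, S100a9, Lcn2, Slpi, Hp), genes of lipid transport (Fabp4, Apoc2), a coagulation factor (F10), genes of antiviral and signalling proteins (Oas1g, Ikbke, Rgl1), the actin-binding Tmsb4x and the antibody constant gene Ighg2c. Hpgd and Fcgr3 fell. Genes were tested when at 10 or more in at least 2 mice. Among the rises, S100a9, Ighg2c, Fabp4, Lcn2 and Rgl1 reached this through the SLE.yaa mice alone, so a fall was not possible for them. S100a8 and Oas1g were at 10 or more in WT 1 but not in WT 2. They too were tested only because an SLE.yaa mouse reached 10, which favoured a rise over a fall. The count depended on single mice and on the variance model: leaving out WT 1 gave 238 calls, leaving out WT 2 gave 65, and leaving out either SLE.yaa mouse gave 13 (the first) or 4. S100a9, Ighg2c, Fabp4, Lcn2 and Rgl1 were under 10 in both WT mice and so were not tested with either SLE.yaa mouse left out, and of the 15 genes 6 were among those 13 and 3 among those 4. In 15 other settings that kept all mice, Ighg2c was called in 15, Hp and Slpi in 14, Fabp4, Apoc2, Tmsb4x and Fcgr3 in 13, Rgl1 in 12, S100a8 and Ikbke in 11, F10 and Hpgd in 10, Lcn2 in 7 and Oas1g in 4, and S100a9 in 11 of the 14 that tested it. Of these settings 1 kept cells with both cycle scores below 0, which every member met, so it repeated the main fit. With limma fitted without a variance trend, Ighg2c was the 1 gene called. In the main fit, 628 of the 8253 genes had an unadjusted limma p below 0.05.

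**Figure D3:**
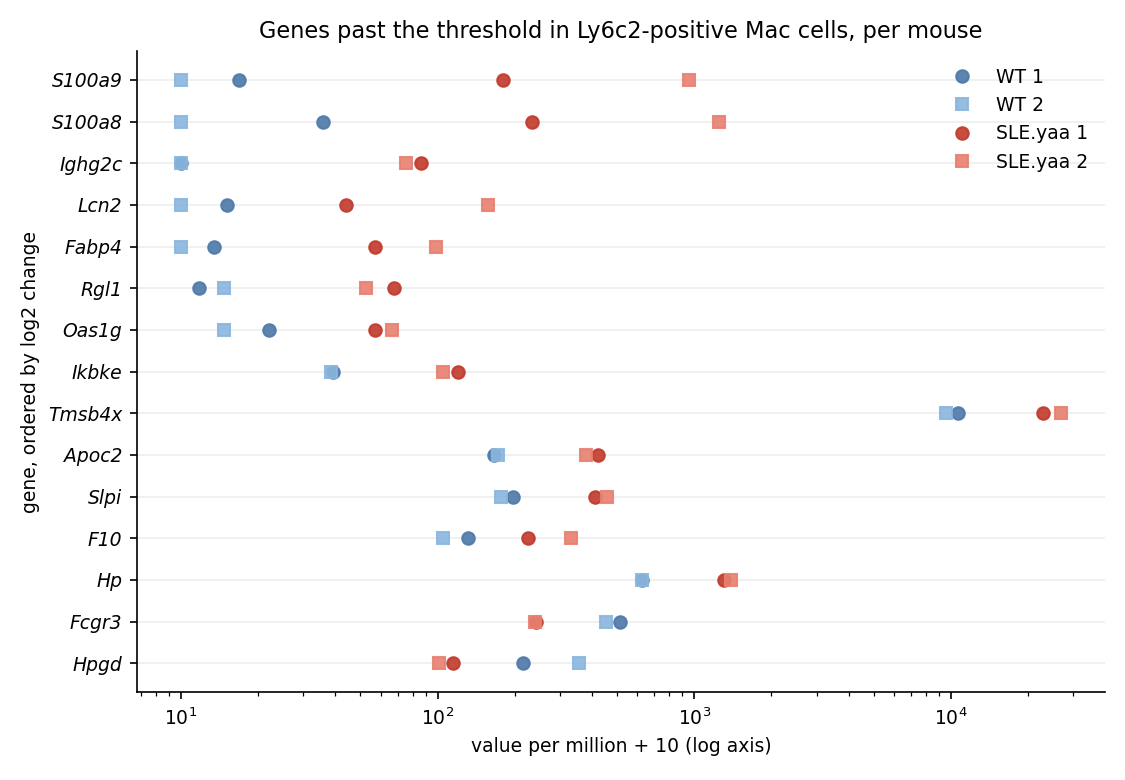
Levels plus 10 (scaled to a sum of 1000000) (horizontal log axis) of the 15 genes past the threshold in Ly6c2-positive Mac cells (vertical axis), 1 point per mouse. The 15 were selected for a difference between these same points, so the lack of overlap between WT and SLE.yaa adds nothing to the calls. Of all genes tested, 20.7% were higher and 16.5% lower in both SLE.yaa mice. S100a8 and S100a9 lie far apart between the 2 SLE.yaa mice, at 223 and 1242 for S100a8.

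Hp, the gene of haptoglobin, which binds free haemoglobin, had levels of 618 and 618 in the WT mice, and of 1291 and 1379 in the SLE.yaa mice. It was 2.16-fold higher by the means, with a log2 change of 1.10 (SE 0.16, limma adjusted p = 0.00471), and had a value in 81.3%, 80.0%, 93.3% and 95.2% of members against at most 1.59% of B cells. Slpi, a secreted inhibitor of leukocyte proteases, had 187 and 167 in WT against 401 and 448 in SLE.yaa (2.40-fold, log2 change 1.22, limma adjusted p = 0.00471). The members that held Slpi went from 33.6% and 42.2% to 66.7% and 65.1%. F10, the gene of coagulation factor X, had 122 and 95.2 in WT against 215 and 320 in SLE.yaa (log2 change 1.21, limma adjusted p = 0.0295). Hp and Slpi were thus spread over many members in both groups, while F10 is given here by its level alone.

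S100a8 and S100a9 encode the subunits of calprotectin, an antimicrobial protein abundant in neutrophils, and lie near each other at chr3:90669071-90670034 and chr3:90692630-90695721 (GRCm38.p6). S100a9 had levels of 6.87 and 0 in the WT mice and 171 and 942 in the SLE.yaa mice (log2 difference of values plus 10 of 5.0, SE 0.50, limma adjusted p = 0.000204). S100a8 had 25.8 and 0 against 223 and 1242 (4.84, SE 0.58, limma adjusted p = 0.000721). Both SLE.yaa mice lay above both WT mice, but a handful of cells held most of the value. In SLE.yaa 1 the 3 highest cells held 92.9% of S100a8, with 1 cell at 71, and in SLE.yaa 2 they held 75.8%, with cells at 271 and 261. A value for S100a8 was present in 10.4%, 0%, 12% and 23.5% of members, and in 5.59%, 1.30%, 4.29% and 8.58% of B cells, which should lack it. The 0 of 45 members in WT 2 allows a share of up to 6.67%.

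Lcn2, the gene of the iron-binding protein lipocalin 2, was at 5.15 and 0 in WT against 34.1 and 147 in SLE.yaa (2.76, SE 0.46, limma adjusted p = 0.0147). The summed level of all 15 neutrophil genes in the members was 137 and 90.4 in WT against 535 and 2756 in SLE.yaa. Of the defining neutrophil genes, Ly6g was present in 1, 0, 0 and 2 members, and Retnlg was at 221 in SLE.yaa 2 and at most 9.52 in the other mice, with 99.4% of it in 3 cells. Without the 2 members of SLE.yaa 1 and the 11 of SLE.yaa 2 that had S100a8 or S100a9 of 3 or more, S100a9 had a log2 difference of 1.25 (limma adjusted p = 0.534), S100a8 of 1.04 (0.658) and Lcn2 of 2.07 (0.171), and 12 genes were called. This left-out set was chosen after the values were seen.

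Of the 12 genes past the threshold that had a promoter window in the RefSeq table, 4 held a C/EBP-type match, TTGCNNAA on either strand, in the 250 bases before their start: S100a9, Lcn2, Slpi and Fcgr3. It was found in 9.56% of all 32851 windows of that length. C/EBP factors act in the making of monocytes and neutrophils. Oas1g held an interferon-stimulated response element (ISRE), found in 2.98% of windows, and no window of the 12 held the AP-1 letters TGANTCA, found in 6.75%. No entry was used for Hp, Fabp4 and Ighg2c. The windows of 4 genes that rose are shown because they carry these matches (RefSeq, GRCm38.p6, minus strand, 5′ to 3′, matches in capitals); a match is a description of the letters alone. They lie at chr3:90695722-90695971 for S100a9, chr2:32387740-32387989 for Lcn2, chr2:164356508-164356757 for Slpi and chr5:120887614-120887863 for Oas1g.
S100a9: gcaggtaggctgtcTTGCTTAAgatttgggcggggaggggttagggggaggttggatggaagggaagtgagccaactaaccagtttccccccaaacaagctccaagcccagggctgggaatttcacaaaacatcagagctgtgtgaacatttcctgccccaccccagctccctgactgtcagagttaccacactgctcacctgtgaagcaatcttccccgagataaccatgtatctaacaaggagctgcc
Lcn2: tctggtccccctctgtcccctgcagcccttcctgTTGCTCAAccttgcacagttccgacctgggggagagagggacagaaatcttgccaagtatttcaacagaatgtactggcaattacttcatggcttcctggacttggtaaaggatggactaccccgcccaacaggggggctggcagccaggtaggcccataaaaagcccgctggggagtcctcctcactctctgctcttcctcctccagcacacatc
Slpi: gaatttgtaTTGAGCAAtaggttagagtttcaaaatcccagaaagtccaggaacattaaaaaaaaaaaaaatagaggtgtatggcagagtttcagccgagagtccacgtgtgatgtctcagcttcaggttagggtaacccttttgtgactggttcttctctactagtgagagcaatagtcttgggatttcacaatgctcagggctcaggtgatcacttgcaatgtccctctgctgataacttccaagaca
Oas1g: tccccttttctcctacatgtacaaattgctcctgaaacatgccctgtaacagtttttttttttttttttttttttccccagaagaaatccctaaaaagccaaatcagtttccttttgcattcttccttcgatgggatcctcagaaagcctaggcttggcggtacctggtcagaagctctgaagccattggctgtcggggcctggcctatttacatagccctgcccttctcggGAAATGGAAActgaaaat

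Among the lipid genes, Apoc2, an activator of lipoprotein lipase, had levels of 156 and 162 in WT members and 412 and 371 in SLE.yaa members. That was 2.46-fold by the means (log2 change 1.25, SE 0.18, limma adjusted p = 0.00471). Fabp4, a fatty acid binding protein of macrophages and fat cells, was held by 1 and 0 WT members and by 7 and 25 SLE.yaa members, with 3.43 and 0 against 47.2 and 88.8 (2.70, SE 0.36, limma adjusted p = 0.00276). In Ly6c2-low cells Fabp4 was already present in 29.5% and 33.9% of WT cells and in 58.5% and 73.5% of SLE.yaa cells.

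Oas1g, an enzyme of the antiviral 2-5A pathway, had 12 and 4.76 against 47.2 and 56.6 (log2 change 1.78, limma adjusted p = 0.0345). It was present in 5.22% and 2.22% of WT members and 20% and 21.1% of SLE.yaa members, and in at most 0.185% of B cells. Of the genes that rose it lost the call most often, in 11 of 15 other settings, with adjusted p up to 0.289. Ikbke, a kinase related to TBK1 in interferon induction, had 29.2 and 28.5 against 110 and 95.2 (3.56-fold, log2 change 1.53, limma adjusted p = 0.0112). Rgl1, which activates Ral proteins, had 1.72 and 4.76 against 57.7 and 42.5 (2.18, limma adjusted p = 0.00895). Rgl1 was also higher in lymphocytes of both SLE.yaa mice, where the levels were 9.36 and 9.20 against 53.4 and 38.9.

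Ighg2c was listed at 0 in both WT mice and at levels of 76.1 and 65.6 in the SLE.yaa mice (limma adjusted p = 0.00042). It was present in 23 of 75 and 44 of 166 SLE.yaa members, or 30.7% and 26.5%. T cells, which do not make antibody, held it in 28.3% and 20.8% of cells of the same mice at median depths of 4717 and 3914 UMIs, and neutrophils in 26.9% and 19.1%. Jchain, the joining chain of IgM and IgA, was present in 21.3% and 9.04% of SLE.yaa members and in 21.3% and 9.46% of their T cells. The part of free RNA in the members' values was not tested. Plasma cells were 12 and 11 of the cells of the WT mice and 340 and 287 of those of the SLE.yaa mice. Summed over the 10 plasma cell genes the members held 338 and 352 in WT against 3383 and 396 in SLE.yaa, where 1 cell of SLE.yaa 1 had a Jchain value of 381 and an Igkc value of 699. Without members that held Jchain, or Igkc of 3 or more, a choice made after seeing the data, 10 genes were called, all 10 of them among the 15.

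Hpgd, the enzyme that degrades prostaglandins, fell from levels of 204 and 347 to 105 and 91.3 (log2 change -1.36, SE 0.23, limma adjusted p = 0.0175). Fcgr3, an activating receptor for IgG, fell from 503 and 442 to 231 and 230 (-1.0, SE 0.18, limma adjusted p = 0.0198), and was present in 86.6% and 88.9% of WT members and 70.7% and 65.7% of SLE.yaa members. The 3 next genes by unadjusted p among those with lower values did not pass. Sirpb1c, a signal-regulatory protein, had 290 and 276 against 157 and 122 (limma adjusted p = 0.0655). Fcgr2b, the inhibitory IgG receptor, had 285 and 352 against 189 and 117 (limma adjusted p = 0.0996). Slamf7, a SLAM family receptor, had 75.6 and 28.5 against 2.62 and 10.3 (limma adjusted p = 0.108).

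The loci that define the strain were read through 2 lists of genes. Of 10 Yaa segment genes tested, only Tmsb4x rose by limma, against 0.158% of all genes. In both SLE.yaa mice 7 of the 10 were higher than in both WT mice, against 20.7% of all genes. The list median was 0.65 on the log2 scale. Tmsb4x, the gene of thymosin beta 4, which holds actin monomers, had levels of 10685 and 9601 in WT against 22838 and 26809 in SLE.yaa (2.45-fold, log2 change 1.29, SE 0.19, limma adjusted p = 0.00471). Tlr7 did not separate the groups in the members, at 97.9 and 200 in WT against 184 and 189 in SLE.yaa (log2 change 0.38, limma adjusted p = 0.763). It had a value in 37.3% and 68.9% of WT members and 58.7% and 59.6% of SLE.yaa members. By share and by level, the WT pair thus lay on either side of the SLE.yaa pair. In lymphocytes Tlr7 was at 14.9 and 15.4 in WT against 38.5 and 48.5 in SLE.yaa. The change in members minus that in lymphocytes, -0.70, did not pass (limma adjusted p = 0.407). In Ly6c2-low cells Tlr7 was at 114 and 89.7 in WT against 183 and 192 in SLE.yaa, and the difference between the changes, -0.44, did not pass (limma adjusted p = 0.763).

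Of 15 Sle1 interval genes tested, Fcgr3 fell and none rose, against 0.0242% and 0.158% of all genes. Both SLE.yaa mice lay below both WT mice in 7 of the 15, against 16.5% of all genes, and the list median was -0.24. Of 13 Fc receptor and phagocyte oxidase genes tested, Fcgr3 alone passed, as a fall, against 0.0242% falling and 0.158% rising among all genes. The list median was 0.07. Fcgr1, the high-affinity IgG receptor, had 115 and 90.4 in WT against 129 and 78.5 in SLE.yaa, and Fcgr4 had 73.8 and 57.1 against 44.6 and 36.0. Fcgr2b, Fcgr3 and Fcgr4 are on the Sle1 list and Fcgr1 is not, and Fcgr4 and Fcgr1 did not pass (limma adjusted p = 0.635 and 0.994).

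Interferon genes gave no call beyond Oas1g, which was not on the lists. None of 28 type I interferon genes passed, their median was -0.02, and 4 were higher and 2 lower in both SLE.yaa mice, against 20.7% and 16.5% of all genes. Ifi27l2a was at 2172 and 2012 in WT against 3089 and 3429 in SLE.yaa (log2 change 0.64, limma adjusted p = 0.242), and Ifitm3, which blocks virus entry, at 6390 and 5857 against 5768 and 5954. None of 13 interferon gamma genes passed either, with a median of -0.75. Here WT 1 stood apart: the list summed to 2519 in WT 1, against 647 in the other WT mouse and 934 and 686 in the SLE.yaa pair. Irf1 was at 453 in WT 1 and between 80.9 and 147 in the other mice, and Ifi47 at 366 against 124 to 197. Without WT 1 the change of Irf1 was 0.52 and without WT 2 it was -1.83, so its sign depended on the WT mouse used.

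MHC class II genes, which present peptides to CD4 T cells, had lower values in SLE.yaa members without a call. None of 7 passed, 5 were below both WT mice in both SLE.yaa mice against 16.5% of all genes, and the median was -0.74. Cd74, the invariant chain, had 7127 and 3635 in WT against 3120 and 3179 in SLE.yaa, and H2-Aa had 1891 and 847 against 693 and 800. A few cells held much of this, since the 3 highest members carried 53.1% of Cd74 in WT 2 and 48.4% in SLE.yaa 1. Among members of 2000 to 8000 UMIs, Cd74 fell, with a log2 change of -1.19 (limma adjusted p = 0.00578) and so did H2-Aa (-1.20, limma adjusted p = 0.0219). The size depended on WT 1: without it Cd74 was at -0.22 and H2-Aa at -0.19 on the log2 scale (limma adjusted p = 0.748 and 0.728), and without WT 2 they were at -1.18 and -1.34 (0.00118 and 2.68e-06). None of 18 MHC class I genes passed, with a median of -0.01, and H2-D1 was at 2926 and 1875 against 2658 and 2791 and B2m at 2361 and 1389 against 2157 and 2387.

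Genes of the monocyte programme gave few calls, and a missing call does not show equal levels. Of 10 classical monocyte genes tested besides Ly6c2, Hp rose and none fell, against 0.158% and 0.0242% of all genes. In both SLE.yaa mice 2 of the 10 were higher and 1 lower, against 20.7% and 16.5% of all genes. Ccr2 was at 833 and 685 in WT against 753 and 746 in SLE.yaa (log2 change -0.01, limma adjusted p = 0.994), and F13a1 at 697 and 961 against 625 and 547 (-0.48, limma adjusted p = 0.544). None of 11 patrolling genes passed, with a median of 0.31 and 4 of 11 higher in both SLE.yaa mice, against 20.7% of all genes. None of 11 transcription factors passed, but 5 were higher and 3 lower in both SLE.yaa mice, against 20.7% and 16.5% of all genes. Cebpb was at 1535 and 1404 against 1656 and 1916, and Klf2, a factor of the quiescent and patrolling state, at 848 and 538 against 1102 and 1503 (log2 change 0.92, limma adjusted p = 0.159). Lyz2 and Psap of the lineage list did not pass (limma adjusted p = 0.582 and 0.934), nor did any of its 13 genes. In both SLE.yaa mice 1 of the 13 was higher and 3 were lower, against 20.7% and 16.5% of all genes.

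The remaining lists on monocyte function had no call among the members. Of 16 genes of the endosomal TLR pathway none passed, with a median of 0.01. Unc93b1, the chaperone of these receptors, was at 639 and 576 against 590 and 432, and the factor Irf5 at 402 and 362 against 417 and 309. Of 14 migration and adhesion genes none passed, with Itga4, an integrin chain, at 750 and 795 against 541 and 570. Of 11 inflammatory mediators none passed, with the chemokines Ccl6 at 1546 and 1537 against 1551 and 1195 and Ccl9 at 323 and 362 against 362 and 340. Of 4 other Ly6 genes none passed, with Ly6e at 2423 and 1836 against 2451 and 2363, and Ly6i at 227 and 23.8 against 126 and 187.

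**Figure D4:**
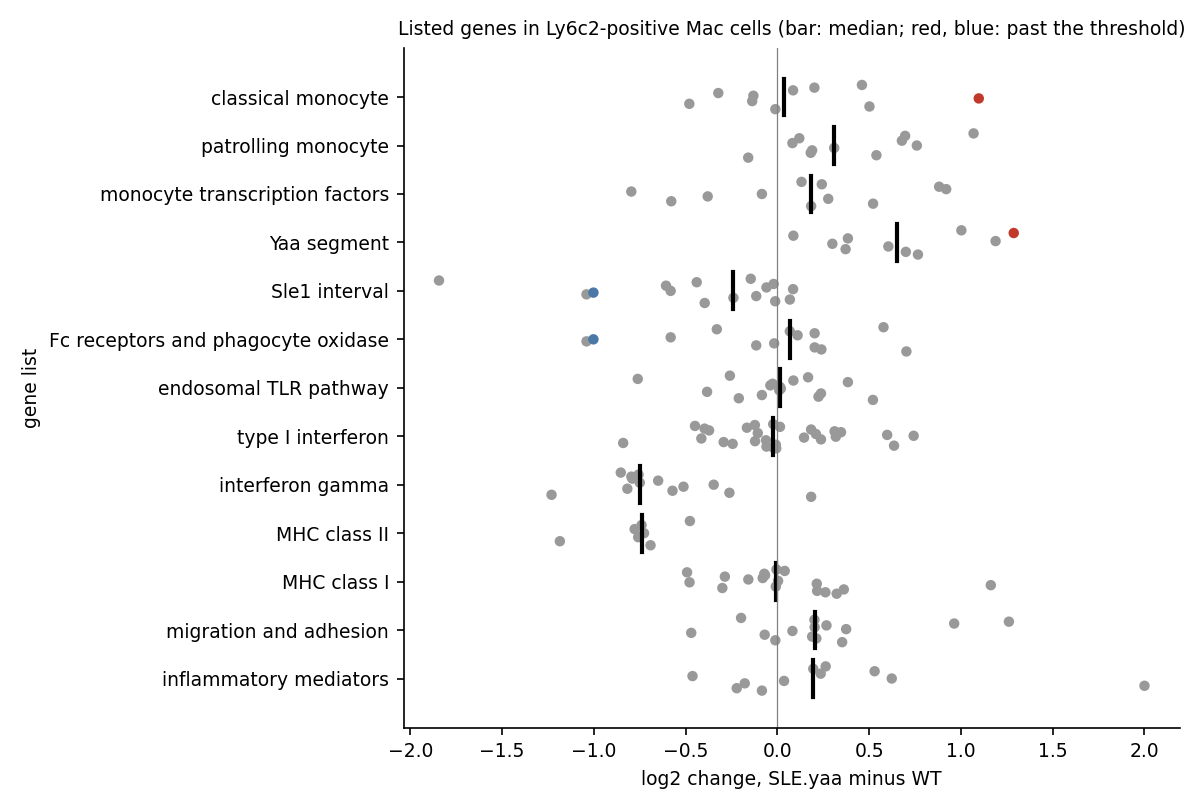
Log2 change between SLE.yaa and WT (horizontal axis) of each tested gene (point) of 13 gene lists (vertical axis) in Ly6c2-positive Mac cells, with the list median as a bar. Only Hp and Tmsb4x (red) and Fcgr3 (blue, on 2 lists) are past the threshold, and the medians run from -0.75 for interferon gamma to 0.65 for the Yaa segment.

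Members were then set against the Ly6c2-low Mac cells of the same mice. Of 8518 genes, 24 had a change more upward in members (0.282%) and 16 one more downward (0.188%), by limma on the differences within mice; the 24 include Ly6c2, which the rule used. Of the 24, 21 had a negative change in Ly6c2-low cells and a less negative or positive one in members. Ccr2, at 833 and 685 against 753 and 746 in members, was at 129 and 213 against 38.6 and 33.5 in Ly6c2-low cells (difference of log2 changes 1.93, limma adjusted p = 7.38e-05). F13a1 was at 36.2 and 104 against 6.43 and 3.10 there (difference 1.83, limma adjusted p = 0.000285). The same pattern held for 6 of 10 MHC class II genes, among them Cd74, at 10805 and 5144 against 1672 and 1774 in Ly6c2-low cells (difference 1.42, limma adjusted p = 7.4e-09).

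The make-up of the Ly6c2-low set moved with this: cells with a Ly6c2 value of 1 were 14.5% and 14.5% of it in WT and 5.05% and 5.16% in SLE.yaa, and their part in these differences was not tested. Fcgr3 had lower levels in SLE.yaa in both kinds of cell, with the larger change in Ly6c2-low cells (312 and 301 against 80.4 and 64.1, difference 0.95, limma adjusted p = 0.0138). Fcgr2b was at 135 and 233 against 31.1 and 20.5 (difference 1.37, limma adjusted p = 0.00285). S100a9, S100a8 and Lcn2 had the 3 highest differences, with Ly6c2-low values of S100a9 at 13.6 and 73.8 in WT against 46.1 and 82.5 in SLE.yaa (difference 4.30, limma adjusted p = 0.00015). The S100a9 and S100a8 calls rested on SLE.yaa 2: without it S100a9 was at 3.49 (limma adjusted p = 0.142) and S100a8 at 2.59 (0.999), and without WT 2 S100a8 was at 2.01. With a pseudocount of 1 the limma adjusted p was 0.250 for S100a8 and 0.584 for Lcn2.

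Genes with the more upward change in Ly6c2-low cells included Hp and cell surface genes. Hp was at 128 and 161 against 715 and 908 in Ly6c2-low cells, so its change was larger there than in members (difference -1.31, limma adjusted p = 6.57e-05). The Ly6c2-low cells of SLE.yaa mice reached values above those of WT members. Pecam1, an adhesion receptor, was at 36.2 and 21.9 against 172 and 265 in Ly6c2-low cells and was between 0 and 20.6 in members of all mice (difference -2.09, limma adjusted p = 0.00539). Itgb3, an integrin chain of vitronectin binding, Serpinb6a, a protease inhibitor, Siglece, an inhibitory lectin, and Gstm1, a glutathione transferase, followed, with differences of -1.92, -1.86, -1.62 and -1.56. With a pseudocount of 1 the limma adjusted p was 0.788 for Pecam1, 0.146 for Serpinb6a and 0.0815 for Siglece. With 1 mouse left out the difference ran from -2.62 to -1.54 for Pecam1 and -1.96 to -1.90 for Itgb3. It ran from -2.20 to -1.51 for Serpinb6a, -1.74 to -1.49 for Siglece and -1.81 to -1.30 for Gstm1. For Tmsb4x the difference between the 2 kinds of cell did not pass (0.13, SE 0.07, limma adjusted p = 0.728). Leaving out WT 1 gave 467 calls in place of 40 and leaving out WT 2 gave 84, while leaving out SLE.yaa 1 or SLE.yaa 2 gave 17 or 13.

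**Figure D5:**
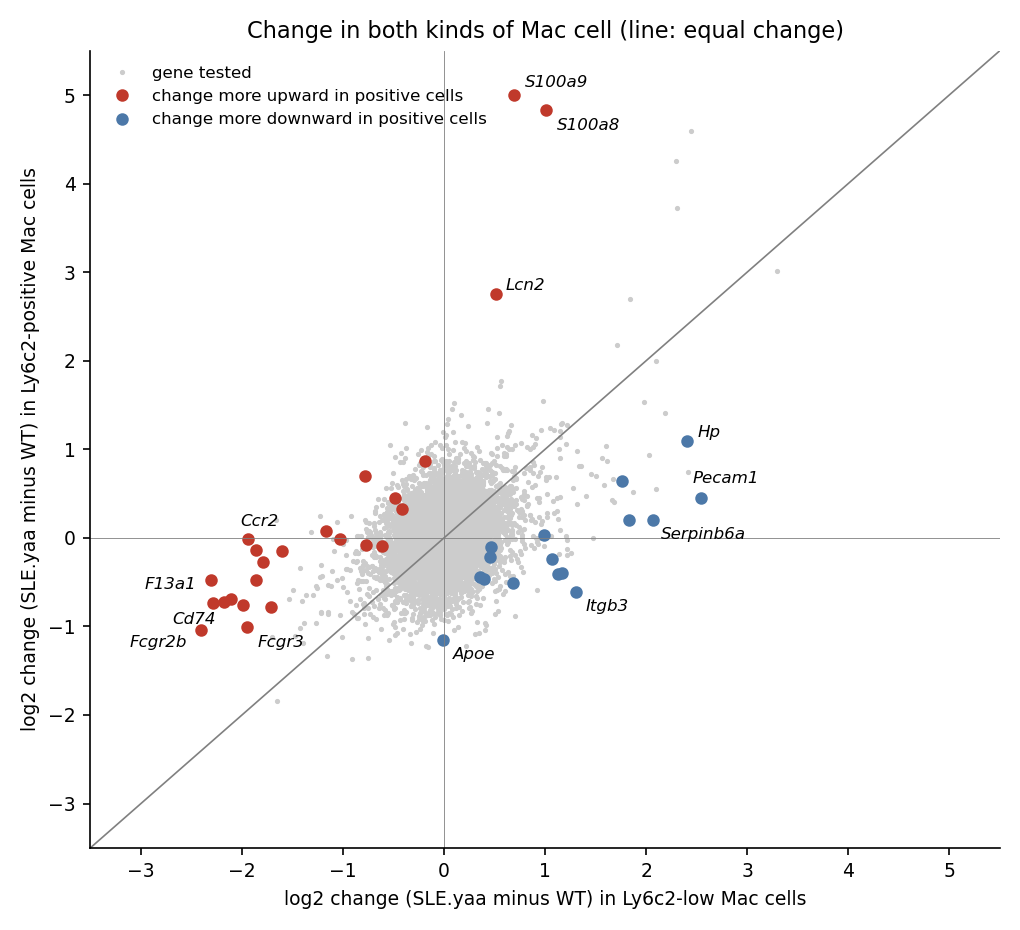
Log2 change between SLE.yaa and WT of each tested gene in Ly6c2-low Mac cells (horizontal axis) and in Ly6c2-positive Mac cells (vertical axis), with a line of equal change. The 24 genes whose change was more upward in positive cells (red) and the 16 more downward (blue) are marked, among them S100a9 at 0.70 and 5.0 and Hp at 2.41 and 1.10.

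Against B, T and NK cells of the same mice, 32 of 9252 genes had a change more upward in members (0.346%) and 76 one more downward (0.821%), by limma on the differences within mice. S100a9 (3.47), S100a8 (3.39), Cd24a (2.29), Lcn2 (2.24) and Fabp4 (2.23) were the 5 largest upward. Cd24a, a surface glycoprotein of B cells and neutrophils, had levels of 258 and 243 against 136 and 107 in lymphocytes, while members held 6.87 and 0 in WT against 26.2 and 18.0 in SLE.yaa. With immunoglobulin genes left out, the 5 largest downward were Lag3, Sostdc1, Tnfrsf4, Tigit and Maf. Lag3, Tnfrsf4 and Tigit encode receptors of activated T cells, and Lag3 and Sostdc1 were at 0 in members of all mice. Tigit was at 0 to 1.29 and Tnfrsf4 at 0 to 9.52, so these 4 genes passed the filter through lymphocytes alone and their differences are changes in lymphocytes, not in members. Slpi was at 7.79 and 4.28 against 93.6 and 61.6 in lymphocytes, a larger change than in members (difference -1.22, limma adjusted p = 0.0455). Tmsb4x was at 6588 and 5635 against 12048 and 15629 in lymphocytes, and the difference from members did not pass (0.12, limma adjusted p = 0.621). In place of the 108 calls there were 232 when WT 1 was left out, 126 when WT 2 was, 9 or 3 when SLE.yaa 1 or SLE.yaa 2 was, and 4 with a pseudocount of 1.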

How the data were processed

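Expression libraries of 4 mice were used, with the receptor libraries of the same mice for the chain checks. Per the submitters' processing notes the tools were Seurat 4.0.0 and Cell Ranger 5.0.0, and the build was GRCm38 (mm10). The deposited expression values are natural log (ln) values, ln(1 + x), where x is a whole number already adjusted for depth by the authors; the sources used here do not state how. Deposited with them were the authors' UMI and gene counts, percent of mitochondrial UMIs, cycle scores and cell types. Deposited cells held 1002 to 26847 UMIs, up to 2999 genes and up to 5.00% mitochondrial UMIs. Unnamed rows (15, with 0.0440% of the values) were left out, leaving 16094 genes. No doublet caller was run on the adjusted values, and the sources used here do not state how doublets were treated.

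Groups came from the labels; replicate numbers follow record order and pair no mice. Values were converted back, averaged per mouse over the cells of a set, scaled to a sum of 1000000 and by TMM factors (edgeR 4.0.16). Genes at 10 or more in 2 or more mice entered limma 3.58.1 (trend, two-sided) on log2(value + 10), which understates changes of low genes, with Benjamini-Hochberg adjustment at 0.05. Differences between cell sets were tested on within-mouse differences. Cells per type were tested with edgeR quasi-likelihood fits (DESeq2 1.42.0 as the alternative). Intervals on shares are exact (Clopper-Pearson, 95%) and, like the limit of 3 cells at a count of 0, cover counting error only. Scripts were tested on data simulated with a dispersion of 0.02, a set value not estimated from these mice. Changes of 1 on the log2 scale were recovered in 45% of cases in the main comparison and 25% in the difference from Ly6c2-low cells. Changes of 2 were recovered in 98% and 81%.

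The members and the 30 gene lists (383 genes) were chosen with earlier results of these data known. Named were the 12 largest rises past the threshold, leaving out immunoglobulin genes, and the 5 falls of smallest p, 5 genes a direction in each difference test, list genes that passed or else the 2 highest of a list, and Ly6c2, Ccr2, F13a1 and Tlr7. Lists of other cell types, patrolling monocytes and general functions are given by counts and sums. Ace, Cd300e, Fn1, Jchain, Igkc, Ly6g, Retnlg, Fcgr1 and Fcgr4 were named after their values were seen.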

Additional observations from a re-analysis of the deposited data

Results flagged for a closer look

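The change between SLE.yaa and WT differed between Ly6c2-positive and Ly6c2-low Mac cells of the same mice for 40 genes, by limma on within-mouse differences with an adjusted p below 0.05. As differences of log2 changes, positive minus low, the values were 4.30 for S100a9, 3.82 for S100a8, 2.25 for Lcn2, 1.93 for Ccr2, 1.83 for F13a1, 1.42 for Cd74, 1.37 for Fcgr2b, 1.23 for H2-Aa, 1.06 for Ly6i, 0.95 for Fcgr3 and 0.52 for Psap. Without SLE.yaa 2 the adjusted p was 0.142 for S100a9 and 0.999 for S100a8, and with a pseudocount of 1 it was 0.250 for S100a8 and 0.584 for Lcn2 (limma). On the other side the values were -2.09 for Pecam1, -1.92 for Itgb3, -1.86 for Serpinb6a, -1.62 for Siglece, -1.56 for Gstm1, -1.31 for Hp and -0.87 for Itga4. Here a pseudocount of 1 gave a limma adjusted p of 0.788 for Pecam1, 0.146 for Serpinb6a and 0.0815 for Siglece.

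The change differed between Ly6c2-positive Mac cells and lymphocytes for 108 genes by the same test. The differences were 3.47 for S100a9, 3.39 for S100a8, 2.29 for Cd24a, 2.24 for Lcn2, 2.23 for Fabp4, 1.76 for Ikbke and 1.74 for Oas1g. They were -3.21 for Lag3, -2.84 for Sostdc1, -2.67 for Tnfrsf4, -2.62 for Tigit, -2.45 for Maf, -1.86 for Lyz2, -1.64 for Hpgd, -1.30 for Fcgr2b, -1.22 for Slpi, -0.76 for Unc93b1 and -0.75 for Itga4. Lag3, Sostdc1, Tigit and Tnfrsf4 were at or near 0 in Ly6c2-positive Mac cells, so their values are changes in lymphocytes. Without SLE.yaa 2 the limma adjusted p was 0.0557 for S100a9 and 0.0519 for S100a8.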

How the results depend on the processing

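In place of the 15 genes called in Ly6c2-positive Mac cells (13 higher, 2 lower), omitting all scaling gave 25 (24 higher, 1 lower), a Ly6c2 value of 1 or more gave 32 (23 and 9), one of 5 or more gave 5 (5 and 0), and limma without a trend gave 1 (1 and 0). The lower calls were 1 with means of ln values, 5 within 2000 to 8000 UMIs and 1 without members that held plasma cell RNA. Leaving out 1 mouse gave 4 to 238 calls, with 4 to 191 higher and 0 to 47 lower. The calls that differed from Ly6c2-low cells numbered 13 to 467 (11 to 280 upward, 2 to 187 downward) with 1 mouse left out, and 10 downward with a pseudocount of 1. Those that differed from lymphocytes numbered 3 to 232 (1 to 129 upward, 2 to 103 downward), 4 with a pseudocount of 1 (1 and 3), and 21 upward when scaled by the sum alone. The difference in the members' share of Mac cells was -24.3 points at a Ly6c2 value of 1 or more and -11.5 at 5 or more. The change in their share of all cells ran from -0.20 to 1.42 with 1 mouse left out. The cause of these shifts was not tested.

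Some named genes turned direction, and not all of them were near no change. In the main fit Ly6i was at 0.87, Irf1 at -0.65, Tlr7 at 0.38, Ifi47 at -0.35 and B2m at 0.32. Ccl9 was at -0.081 by the sum alone, -0.0026 with means of ln values and -0.056 at a Ly6c2 value of 1 or more. Without scaling, Psap was at 0.017, Ifitm3 at 0.052, Irf5 at 0.028 and Ccr2 at 0.10. Ccr2 was at 0.24 at a Ly6c2 value of 5 or more and at 0.0032 without members that held plasma cell RNA, and Ifitm3 at 0.030 within 2000 to 8000 UMIs. With 1 mouse left out, the ranges were -1.10 to 0.39 for Ifi47, -1.83 to 0.52 for Irf1, -0.11 to 0.53 for H2-D1, -0.063 to 0.69 for B2m, -0.30 to 0.13 for Irf5, -0.36 to 0.0090 for Ccl6, -0.053 to 0.11 for Ccl9, -0.16 to 0.12 for Ccr2, -0.015 to 0.38 for Ly6e, -0.54 to 2.27 for Ly6i and -0.11 to 0.86 for Tlr7. Over the named genes, the other settings left 526 values on their side of the threshold, took 53 below it, brought 8 past it and turned 10. The setting on cycle scores held the same cells as the main fit and could not differ. No paired analysis was possible because the labels give no number that pairs mice. The sets left out for S100a8, S100a9 or plasma cell RNA were chosen after seeing the data.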

Other observations

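General cell functions gave no call in the Ly6c2-positive Mac cells. Of 13 glycolysis genes none passed by limma, with a median log2 change of 0.25 and 3 higher in both SLE.yaa mice, against 20.7% of all genes. Of 5 proliferation genes tested none passed, with 3 of 5 higher in both SLE.yaa mice, against 20.7% of all genes. Both cycle scores were below 0 in all members. None of 10 immediate early genes, 8 heat shock genes and 13 cathepsin and lysosome genes passed, with medians of 0.02, -0.06 and 0.03. Of 14 inhibitory and regulatory genes none passed, with a median of 0.14.

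Lists of other cell types, beside the neutrophil and plasma cell lists described above, had no call. The summed level of 10 B cell genes was 191, 276, 205 and 135 (the WT pair, then the SLE.yaa pair), of 15 splenic macrophage genes 917, 1951, 976 and 480, and of 12 dendritic cell genes 197, 238, 228 and 142. The T cell genes in the table summed to 73.8, 4.76, 2.62 and 39.9, 7 NK cell genes to 41.2, 14.3, 13.1 and 30.9, and 6 platelet genes to 24.0, 33.3, 10.5 and 33.5. Erythroid genes, 6 in number, summed to 0, 0, 2.62 and 3.86.

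Ccl5, a chemokine of T and NK cells, was at 8.59 and 4.76 in WT members and 28.9 and 103 in SLE.yaa members, without a call (log2 change 2.00, limma adjusted p = 0.0909). It was named after its value was seen.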
